A study of Homo sapiens with 2 samples.

Results

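A set of 10 neural adhesion and cytoskeleton genes was examined in KYSE30-Luc-GFP cells sorted on CD44, the cell surface receptor for hyaluronan. The set comprised the adhesion molecules CNTN1, NRCAM, L1CAM, SLITRK6, CNTNAP2, NCAM2 and CADM1, the microtubule-associated proteins MAP2 and MAP1B, and the calcium-binding protein CALB2. They are 10 of the 60725 genes in the table and were chosen by name on their ratio of expression in the CD44 high over the CD44 low fraction, so that values of that comparison only describe them. KYSE30 is a long-established human cell line from an esophageal squamous cell carcinoma (ESCC), and the cells in both groups carried luciferase and GFP. They were grown in vitro, stained with an antibody, and sorted by flow cytometry into CD44 Positive (CD44 high) and CD44 Negative (CD44 low) fractions. Polyadenylated RNA from each fraction gave 1 library, both from the same line. No spread between cultures could be estimated, so all intervals below cover counting error only. In such bulk libraries, fewer cells that express a gene and less RNA per expressing cell cannot be told apart.

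Contactins, L1 family members and NCAM family members are immunoglobulin-domain proteins that hold axons to other axons and to glia and steer growth cones. They act in combination, with contactins anchored to the outer membrane by a lipid and binding CASPR and L1 family partners, whose cytoplasmic tails connect to ankyrins, band 4.1 proteins and the spectrin-actin cortex. Microtubule-associated proteins stabilize the microtubules behind the membrane, MAP2 mainly in dendrites and MAP1B in growing axons, and calretinin (CALB2) buffers calcium in subsets of interneurons. Several of these genes are also expressed in carcinomas, where L1CAM is known for its presence at invasive fronts.

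Several members are spliced in forms known from the nervous system, and the exons that separate those forms are shown because the transcript results below turn on them. Exon positions are from GENCODE release 44 and bases from the hg38 (GRCh38) genome, read 5′ to 3′ on the strand of the gene, with the exon in capitals and 15 bases of intron on each side. The L1CAM exons lie on the minus strand at chrX:153863368-153863379 and chrX:153873228-153873242. Neurons include both of them, while many other cells skip both, and the shorter exon adds an endocytosis signal to the cytoplasmic tail. The CNTN1 exon (plus strand, chr12:40910073-40910105) lies near the start of the coding region. The MAP2 exon (plus strand, chr2:209723595-209723687) adds a further microtubule-binding repeat.
L1CAM 12-base exon: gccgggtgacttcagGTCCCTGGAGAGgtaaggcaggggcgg
L1CAM 15-base exon: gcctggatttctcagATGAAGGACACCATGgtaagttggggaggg
CNTN1 33-base exon: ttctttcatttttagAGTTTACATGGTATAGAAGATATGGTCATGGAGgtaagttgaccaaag
MAP2 93-base exon: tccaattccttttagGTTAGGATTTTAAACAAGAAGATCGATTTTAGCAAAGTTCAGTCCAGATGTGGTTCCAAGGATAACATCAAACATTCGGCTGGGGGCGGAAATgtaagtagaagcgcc
All 4 exons are flanked by an ag before and a gt after, the usual splice site bases.

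Promoter windows were available for 8 of the 10 members as 15 windows of 300 bases, each lying mostly before an annotated start and running past it (RefSeq, GRCh38.p14). They were searched on both strands for an AP-1 motif (TGACTCA or TGAGTCA), a SOX motif (AACAAT or ATTGTT) and an E-box (CACCTG or CAGGTG). Each motif matched 2 of the 15 member windows (13.3%), while 4.95%, 10.1% and 20.6% of all 35116 windows held the AP-1, SOX and E-box letters. The SLITRK6 window (minus strand, chr13:85799370-85799669) and the downstream CNTN1 window (plus strand, chr12:40908107-40908406) are printed because these members had the largest differences in counts among the adhesion genes and each window held 1 match, shown in capitals.
SLITRK6 promoter: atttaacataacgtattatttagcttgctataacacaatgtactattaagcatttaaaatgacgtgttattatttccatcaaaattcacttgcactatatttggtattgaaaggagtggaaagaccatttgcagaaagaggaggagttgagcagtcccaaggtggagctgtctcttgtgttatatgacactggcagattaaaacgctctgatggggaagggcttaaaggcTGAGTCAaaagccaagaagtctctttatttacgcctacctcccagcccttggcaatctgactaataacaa
CNTN1 promoter: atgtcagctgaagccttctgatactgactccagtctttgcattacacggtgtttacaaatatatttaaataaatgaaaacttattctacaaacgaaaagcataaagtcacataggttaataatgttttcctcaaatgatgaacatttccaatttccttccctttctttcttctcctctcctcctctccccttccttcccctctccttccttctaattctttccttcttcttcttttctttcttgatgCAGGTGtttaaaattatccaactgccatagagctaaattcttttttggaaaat
The match was an AP-1 motif in SLITRK6 and an E-box in CNTN1. Both windows were poor in G and C, at 38.7% in SLITRK6 and 35% in CNTN1, against a median of 58.7% over all windows. A match of letters is a description and does not show that a factor was bound.

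The CD44 high library held 21633236 expected counts (reads as the RSEM program assigns them to genes) and the CD44 low library 22859583. CD44 itself (chromosome 11) had 22819 counts in CD44 high cells and 9727 in CD44 low cells, a ratio of 2.35 (95% counting interval 2.29 to 2.41), in the direction of the labels. Mitochondrial genes took 7.50% of counts in CD44 high cells and 14% in CD44 low cells. This share enters the TPM, a level that RSEM scales for length and library size, of all other genes.

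The members split in direction. Of the 10, 4 were at least 2-fold lower in CD44 high cells (CNTN1, NRCAM, SLITRK6 and MAP2) and 2 were at least 2-fold higher (L1CAM and CALB2). A gene was counted when a library held at least 50 expected counts, the ratio of scaled counts was at least 2-fold and its 95% counting interval excluded equality. Over all 12371 genes with 50 counts in a library, 4.2% were lower and 1.24% higher by the same rule (5.44% either way), and nothing is read from this contrast because it was used to choose the members. NCAM2 and MAP1B stayed within 2-fold, and CNTNAP2 and CADM1 did not reach 50 counts. Together the members gave 4503 counts in CD44 high cells and 12628 counts in CD44 low cells. SLITRK6, MAP2 and CNTN1 made up 48.9% of that sum in CD44 high cells and 88.4% in CD44 low cells. Over the 9 members that reached 20 counts in a library, the log2 ratio ran between -2.90 and 3.37 with a median of -0.21, and the median over all 13893 genes that passed this filter was -0.01.

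**Figure D1:**
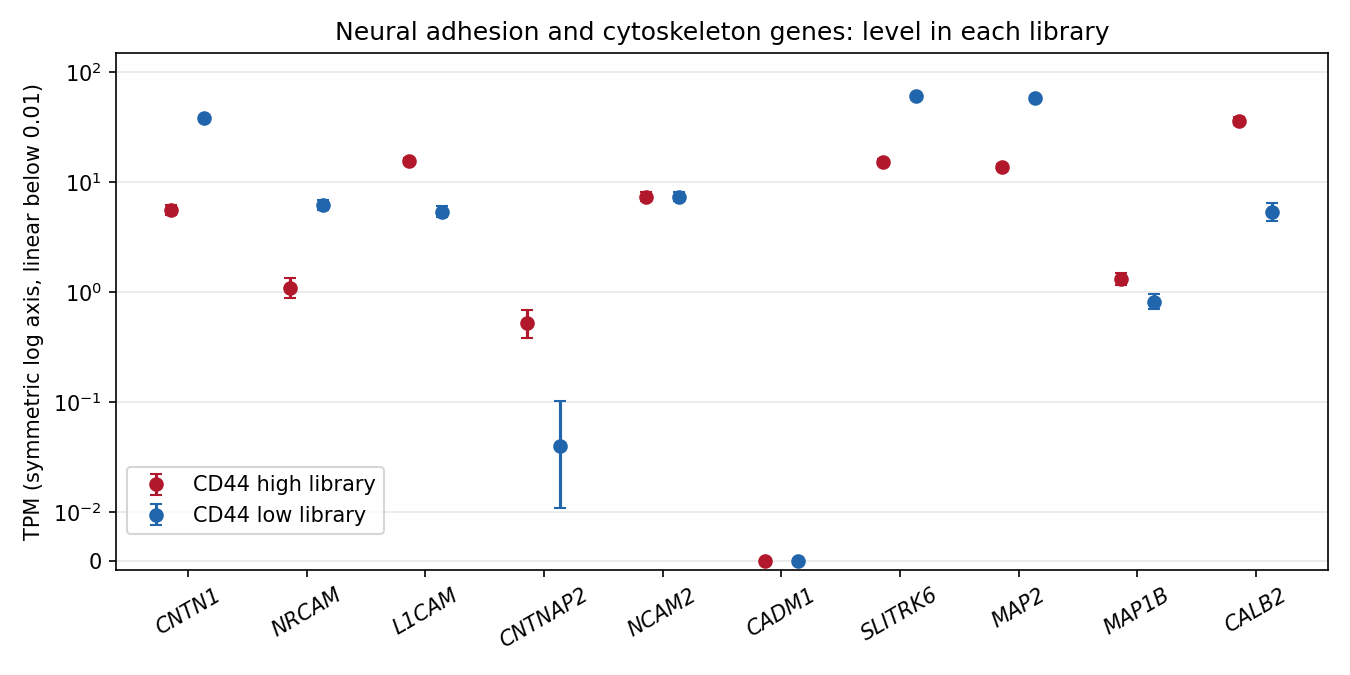
Level of each member in TPM (vertical axis, logarithmic above 0.01 and linear below) in the CD44 high library (red, left of each pair) and the CD44 low library (blue, right). Bars are 95% Poisson counting intervals. CNTN1, NRCAM, SLITRK6 and MAP2 lie lower in CD44 high cells, L1CAM, CNTNAP2, MAP1B and CALB2 lie higher, NCAM2 is at 7.39 TPM in CD44 high cells and 7.41 TPM in CD44 low cells, and CADM1 is at 0 in both libraries.

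CNTN1 encodes contactin 1, the lipid-anchored adhesion protein of axons and of the paranodal junction with glia (ENSG00000018236.14, chr12:40692442-41072418, plus strand). It had 371 counts (5.62 TPM) in CD44 high cells and 2771 counts (38.14 TPM) in CD44 low cells. The scaled count was 7.46-fold lower in CD44 high cells (95% counting interval 6.69 to 8.34, log2 ratio -2.90). No other member was lower by as much. In order of TPM among the 10 members, CNTN1 stood at place 6 in CD44 high cells and at place 3 in CD44 low cells.

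Both L1 family members were expressed, and they differed in opposite directions. L1CAM, the founding member of the family (ENSG00000198910.12, chrX:153861514-153909223, minus strand), had 854 counts (15.65 TPM) in CD44 high cells and 310 counts (5.40 TPM) in CD44 low cells. Its scaled count was 2.76-fold higher in CD44 high cells (2.42 to 3.15, log2 ratio 1.46). NRCAM, a related ankyrin-binding protein of nodes of Ranvier and growth cones (ENSG00000091129.19, chr7:108147623-108456717, minus strand), had 89 counts (1.10 TPM) in CD44 high cells and 360 counts (6.23 TPM) in CD44 low cells. The scaled count of NRCAM was 4.04-fold lower (3.20 to 5.15, log2 ratio -2.01). Per length, NRCAM was far below L1CAM in CD44 high cells. In CD44 low cells NRCAM was slightly above L1CAM, with counting intervals that overlapped (NRCAM 5.60 to 6.91 TPM, L1CAM 4.82 to 6.04 TPM). The NRCAM level in CD44 low cells included 1.80 TPM from NRCAM-212, a short annotated transcript of 575 bases with 11.32 counts. The order of L1CAM and NRCAM in CD44 low cells is therefore not settled.

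SLITRK6 encodes a leucine-rich repeat membrane protein that shapes neurite growth and is needed for the nerve supply of the inner ear (ENSG00000184564.8, chr13:85792790-85799488, minus strand). It had 953 counts (15.29 TPM) in CD44 high cells and 4234 counts (61.14 TPM) in CD44 low cells, where it was the member with the highest TPM. The scaled count was 4.44-fold lower in CD44 high cells (4.14 to 4.77, log2 ratio -2.15). Even there SLITRK6 ranked at place 3 of the 10 members, so the gene was expressed in both fractions at different levels.

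CNTNAP2 encodes CASPR2, which clusters potassium channels beside the nodes of myelinated axons (ENSG00000174469.17, chr7:146116002-148420998, plus strand). Only 46 counts (0.52 TPM) were assigned to it in CD44 high cells and 4 counts (0.04 TPM) in CD44 low cells. Its ratio of 11.5 was the highest of the members and had the widest interval (4.20 to 44), and it stayed under the count minimum. On the log2(TPM + 1) scale the difference was 0.55.

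NCAM2, an immunoglobulin-domain protein known from olfactory axons (ENSG00000154654.14, chr21:20998315-21543329, plus strand), had 447 counts (7.39 TPM) in CD44 high cells and 518 counts (7.41 TPM) in CD44 low cells. The scaled count was 1.16-fold lower in CD44 high cells (1.02 to 1.32, log2 ratio -0.21), and the TPM values were almost equal. For TPM without mitochondrial genes the difference on the log2(TPM + 1) scale was -0.22. CADM1, a synaptic adhesion molecule also known as a tumor suppressor that is often silenced in carcinomas (ENSG00000182985.16, chr11:115169218-115504957, minus strand), had 0 counts in both libraries. All of its 25 deposited transcripts were at 0. A count of 0 allows up to 3 counts, which corresponds to 0.139 CPM (counts scaled to the library total) in CD44 high cells and 0.131 CPM in CD44 low cells, so CADM1 was not detectable at this depth.

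The microtubule-associated members differed from each other in ratio. MAP2, the dendritic protein that bundles microtubules and anchors protein kinase A (ENSG00000078018.19, chr2:209424058-209734118, plus strand), had 880 counts (13.84 TPM) in CD44 high cells and 4152 counts (58.91 TPM) in CD44 low cells. The scaled count of MAP2 was 4.71-fold lower in CD44 high cells (4.38 to 5.07, log2 ratio -2.24). MAP1B, which acts in axon outgrowth (ENSG00000131711.14, chr5:72107234-72209570, plus strand), had 236 counts (1.32 TPM) in CD44 high cells and 164 counts (0.82 TPM) in CD44 low cells. That is 1.44-fold higher (1.18 to 1.77, log2 ratio 0.53), within 2-fold. Per length, MAP2 lay above MAP1B in both libraries.

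CALB2 encodes calretinin, a calcium buffer of interneurons that is also used as a marker of mesothelium (ENSG00000172137.18, chr16:71358713-71390438, plus strand). It had 627 counts (36.16 TPM) in CD44 high cells and 115 counts (5.41 TPM) in CD44 low cells. The scaled count was 5.46-fold higher in CD44 high cells (4.47 to 6.72, log2 ratio 2.44). CALB2 had the highest TPM of the members in CD44 high cells and stood at place 6 in CD44 low cells, where its counting interval (4.47 to 6.49 TPM) overlapped those of L1CAM and NRCAM.

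**Figure D2:**
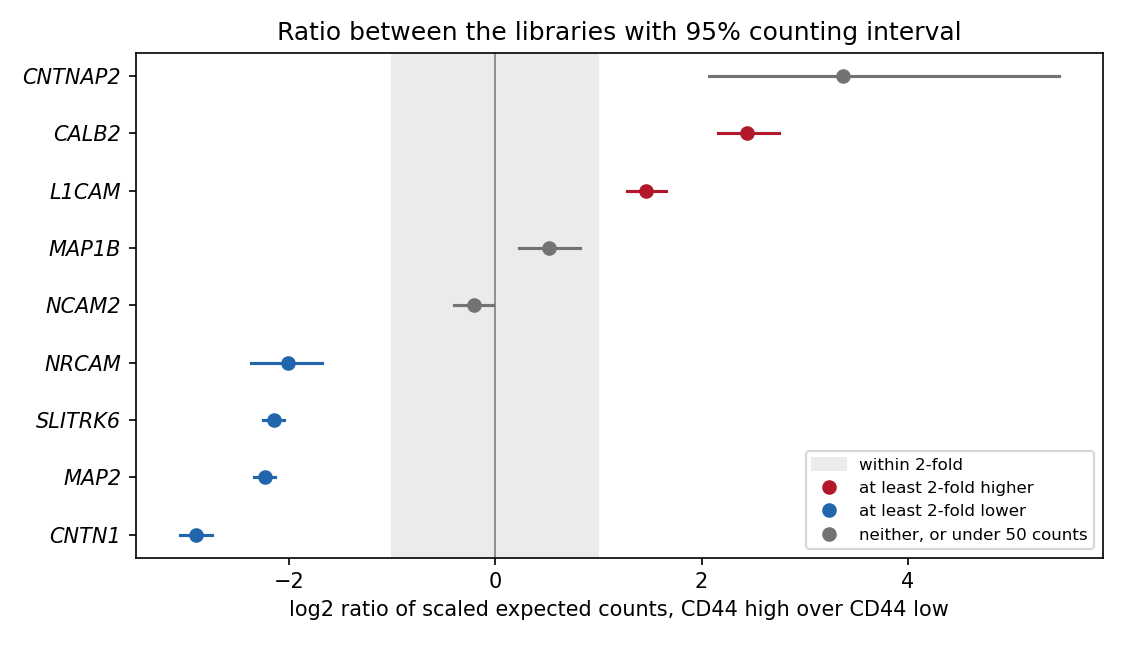
Log2 ratio of scaled expected counts, CD44 high over CD44 low (horizontal axis), for the 9 members that reached 20 counts, with 95% counting intervals as lines and the range within 2-fold shaded. The interval of CNTNAP2 is the widest, on 46 counts in CD44 high cells and 4 in CD44 low cells, and those of MAP1B and NCAM2 lie inside the shaded range.

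The order of the members by TPM in CD44 high cells was CALB2, L1CAM, SLITRK6, MAP2, NCAM2, CNTN1, MAP1B, NRCAM, CNTNAP2 and CADM1. The intervals of L1CAM, SLITRK6 and MAP2 all overlapped each other in that library, and so did those of MAP1B and NRCAM. In CD44 low cells the order was SLITRK6, MAP2, CNTN1, NCAM2, NRCAM, CALB2, L1CAM, MAP1B, CNTNAP2 and CADM1. There the intervals overlapped between SLITRK6 and MAP2, between NCAM2 and NRCAM, and among NRCAM, CALB2 and L1CAM. The median TPM of all 12140 measured protein coding genes was 19.0 in CD44 high cells and 17.1 in CD44 low cells. CALB2 was the only member above that median in CD44 high cells, and SLITRK6, MAP2 and CNTN1 were the only members above it in CD44 low cells.

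**Figure D3:**
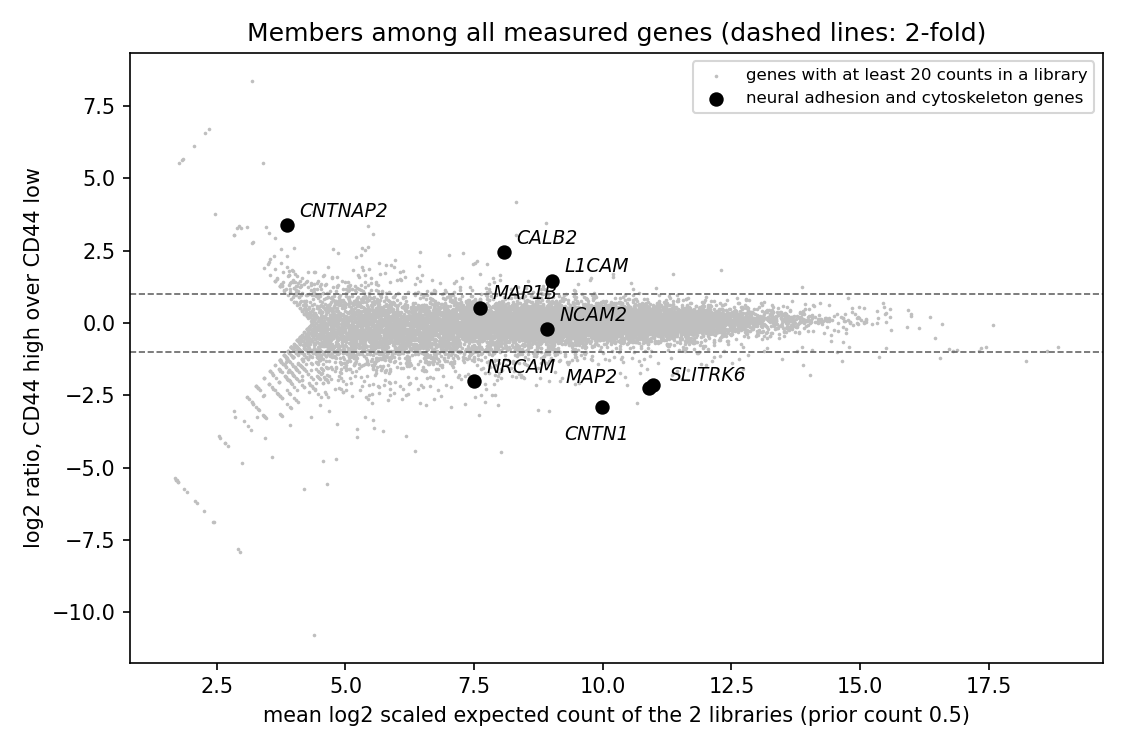
Log2 ratio CD44 high over CD44 low (vertical axis) against the mean log2 scaled expected count of both libraries (horizontal axis) for all 13893 genes that reached 20 counts (grey) and the members (black, labelled). Dashed lines mark 2-fold, a range that held 92.0% of all genes. Of the 9 members drawn, 7 lie outside it, among them CNTNAP2, which did not reach 50 counts. The members were chosen on this ratio, so nothing is read from their position against all genes.

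By likeness of the log2 ratio over these 2 libraries alone, the genes closest to CNTN1 were VAV3, a guanine nucleotide exchange factor (48 counts in CD44 high cells and 361 in CD44 low cells, log2 ratio -2.90), and EGR2, a transcription factor of myelinating Schwann cells (35 counts in CD44 high cells and 255 in CD44 low cells, log2 ratio -2.85). The closest to CNTNAP2 were DMBT1, a secreted scavenger receptor (138 counts in CD44 high cells and 13 in CD44 low cells, log2 ratio 3.36), and the locus RP11-512M8.5 (133.56 counts in CD44 high cells and 15.37 in CD44 low cells, log2 ratio 3.08). With 2 libraries, such a likeness only says that the ratios were similar.

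Most members had a long gene body, which the choice did not use. Of the 10, 7 spanned over 100 kb, as did 19.4% of measured protein coding genes, and the median span was 310 kb for the members and 33.3 kb for those genes. The shortest was SLITRK6 (6.70 kb), which was 4.44-fold lower in CD44 high cells. The longest was CNTNAP2 (2305 kb), with a ratio of 11.5 on 46 counts in CD44 high cells and 4 in CD44 low cells. L1CAM (47.7 kb) and CALB2 (31.7 kb) were at least 2-fold higher in CD44 high cells. CNTN1 (380 kb), NRCAM (309 kb) and MAP2 (310 kb) were at least 2-fold lower, and MAP1B (102 kb) and NCAM2 (545 kb) stayed within 2-fold. Among genes with 50 counts in a library, 5.73% of the 2199 protein coding genes over 100 kb were at least 2-fold lower in CD44 high cells and 1.73% at least 2-fold higher, against 3.38% lower and 0.981% higher among the 9171 shorter genes. The median log2 ratio was -0.11 in the long genes and 0.04 in the short ones. The part of gene length in the member ratios was not tested.

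Genes that overlap the members had few counts. Every member count was a whole number within 0.05, so that no division of reads between a member and another gene was visible. Of the genes that overlap a member, ARHGAP4 at L1CAM reached 4 counts in CD44 high cells and 18 in CD44 low cells, and those within CNTN1 reached at most 6 counts. All genes on the opposite strand of a member were at 0 counts in both libraries.

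Transcripts were examined next, to learn which forms of each gene were present. The deposited transcript table held 111 transcripts of the members, of which 102 were matched to GENCODE release 44, 42 had a value above 0 and 24 reached 20 counts in a library. RSEM divides reads among overlapping transcripts, so that the shares below are estimates. Shares were taken over coding transcripts with at least 9 exons, which leaves out short fragments. Of 11 exon differences between such transcripts, 4 had a share of TPM that differed by at least 10 percentage points between the libraries. By transcript counts there were 3, without that of CALB2.

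Of these, 2 were in CNTN1. CNTN1 has an upstream first exon (chr12:40692442-40692592) and a downstream start. Transcripts from the upstream exon made up 6.48% of CNTN1 TPM in CD44 high cells (14.45 counts) and 29.7% in CD44 low cells (720.9 counts). The main form, CNTN1-201, starts at position 40908354, within the window printed above, and had 297.78 counts in CD44 high cells and 1999.18 counts in CD44 low cells. It was therefore the leading form in both fractions. The 33-base exon was present in 77.1% of TPM in CD44 high cells and in 99.8% in CD44 low cells. By transcript counts these shares were 84.6% in CD44 high cells and 99.9% in CD44 low cells. The absence of the exon rests on CNTN1-202, with 57.02 counts in CD44 high cells and 2.79 counts in CD44 low cells. CNTN1-202 differs from CNTN1-201 also in its annotated ends. CNTN1-202 was the only CNTN1 form of at least 20 counts that was higher in CD44 high cells.

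L1CAM was nearly all of the form without the neural exons. L1CAM-202, which starts downstream and lacks both small exons, had 748.40 counts in CD44 high cells and 297.52 counts in CD44 low cells. Among forms with at least 9 exons, those from the upstream first exon (chrX:153886065-153886173), the start used in neurons, had 76.66 counts in CD44 high cells, 9.74% of TPM, and 0 counts in CD44 low cells. With short annotated fragments included, the upstream start had 78.66 counts in CD44 high cells and 4 counts in CD44 low cells. By counts it then made up 9.21% of L1CAM in CD44 high cells and 1.29% in CD44 low cells. By TPM, which weighs short fragments more, it made up 8.63% in CD44 high cells and 10.2% in CD44 low cells. With fragments included, the difference in the upstream start was thus present by counts and absent by TPM. The TPM share in CD44 low cells rests on those 4 counts. L1CAM-205, the form with the 12-base and 15-base exons, took 20.36 counts in CD44 high cells, 2.47% of the counts over the compared forms (exact binomial 95% interval 1.49 to 3.72%). In CD44 low cells it was at 0, for which the same exact interval reaches 1.23% (a count of 0 allows 3 counts, or 1.01%). The interval in CD44 high cells lay above that limit, on a number of reads that RSEM estimated.

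MAP2 had similar shares of both exons in the fractions while its level differed 4.71-fold. MAP2-205, which lacks the long central exon and so encodes the short juvenile protein, had 525.24 counts in CD44 high cells and 2323.23 counts in CD44 low cells. The long exon (3726 bases, chr2:209692625-209696350), which makes the high molecular weight protein of mature dendrites, was present in 16.9% of TPM in CD44 high cells and 17.4% in CD44 low cells. By transcript counts, which weigh long forms more, these shares were 28% in CD44 high cells and 31.7% in CD44 low cells. The 93-base exon was present in 25.5% of TPM in CD44 high cells and 26.5% in CD44 low cells, all from MAP2-201. By transcript counts its shares were 10.8% in CD44 high cells and 10.9% in CD44 low cells. The short forms without the long exon led in both fractions.

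NRCAM-202, with a 30-base exon (chr7:108191254-108191283), made up 34.8% of TPM in CD44 high cells and 21.2% in CD44 low cells. It had 26.84 counts in CD44 high cells and 54.65 counts in CD44 low cells, and the exact intervals of its share of counts overlapped (22.9 to 44.2% in CD44 high cells and 15.5 to 25.3% in CD44 low cells). The upstream first exon of NCAM2 (chr21:20998409-20998618) held 17.3% of TPM in CD44 high cells and 17.2% in CD44 low cells. NCAM2 was thus alike in first exon between the libraries. A 72-base exon of CALB2 (chr16:71385577-71385648) was present in 89.1% of TPM in CD44 high cells and 100% in CD44 low cells, where the whole gene had 115 counts. By transcript counts these shares were 95.4% in CD44 high cells and 100% in CD44 low cells. The CALB2 form without it, CALB2-205, is annotated as a fragment of 704 bases and had 28.92 counts in CD44 high cells and 0 in CD44 low cells.

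All CNTNAP2 counts, 46 in CD44 high cells and 4 in CD44 low cells, were assigned to CNTNAP2-203, which starts at position 148339461 and holds only the last 4 exons of the gene. The other 7 deposited CNTNAP2 transcripts, the full-length one included, were at 0 in both libraries. The values of CNTNAP2 thus describe its 3′ end and not the transcript of the whole CASPR2 protein. MAP1B was assigned to MAP1B-201 alone, and SLITRK6 has 1 deposited transcript.

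**Figure D4:**
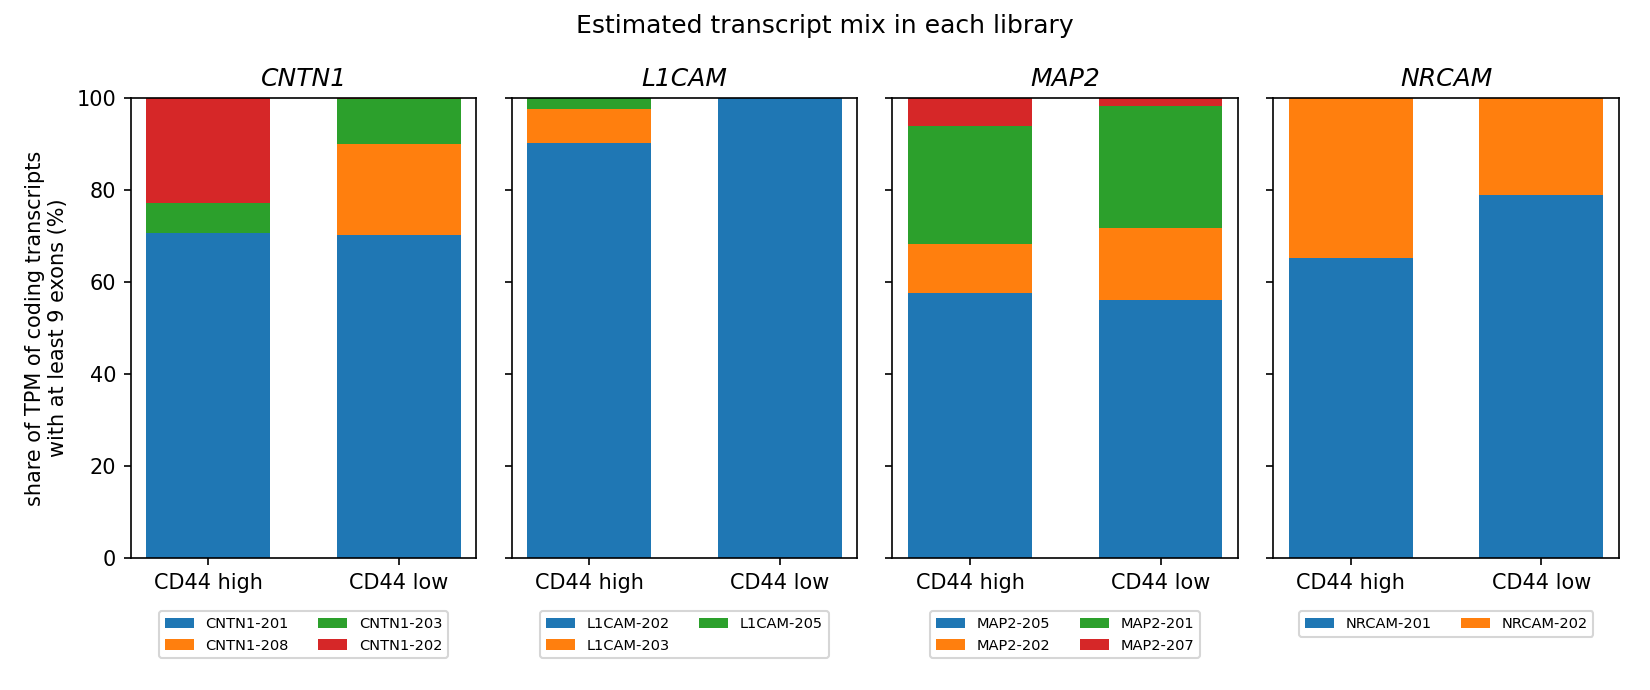
Share of TPM (vertical axis, %) of each coding transcript with at least 9 exons in the CD44 high library (left bar) and the CD44 low library (right bar), for CNTN1, L1CAM, MAP2 and NRCAM. CNTN1-202, at the top of the left CNTN1 bar, lacks the 33-base exon, which was present in 77.1% in CD44 high cells and 99.8% in CD44 low cells, and the MAP2 bars differ little.

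Relatives and partners of the members were then described from 8 lists drawn up by family and role. Of 103 listed genes with 50 counts in a library that are not members, 7 (6.80%) were at least 2-fold lower in CD44 high cells and 2 (1.94%) at least 2-fold higher, beside 4.2% and 1.24% over all genes. With no test, nothing particular to the lists is read from these shares. The contactin, CASPR and L1 list held 16 genes, of which 8 were measured with at least 20 counts. Apart from the members, 4 were measured, 0 were higher and 1 was lower. This was NFASC, the nodal L1 family protein neurofascin, with 42 counts in CD44 high cells and 160 in CD44 low cells (3.81-fold lower, 2.69 to 5.48). The median log2 ratio of the 8 was -0.83. The other contactins were at or near 0, so that CNTN1 was the only contactin with more than 2 counts in a library. CHL1, the remaining L1 family gene, was at 0 in both libraries.

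In the NCAM, CADM and nectin list, 10 of 15 genes were measured, and of the 9 that are not members 0 were higher and 1 was lower. CADM2 had 44 counts in CD44 high cells and 121 in CD44 low cells (2.75-fold lower, 1.93 to 3.97). NCAM1, the main neural NCAM, had 5 counts in CD44 high cells and 0 in CD44 low cells. The median log2 ratio of the 10 was -0.44. Among SLITRKs and other synaptic organizers, 14 of 37 were measured, with a median of -0.54, and of the 13 that are not members 0 were higher and 2 were lower. These were FLRT3, a ligand of latrophilins and UNC5 receptors, with 248 counts in CD44 high cells and 739 in CD44 low cells (2.98-fold lower, 2.57 to 3.45), and SLITRK5, of the same family as SLITRK6, with 178 counts in CD44 high cells and 423 in CD44 low cells (2.37-fold lower, 1.99 to 2.84). These 3 medians include members that were chosen on the same ratio. Without the members the medians were -0.83, -0.66 and -0.36, and 3 of 4, 8 of 9 and 11 of 13 measured genes did not meet the 2-fold rule. On the log2(TPM + 1) scale the contactin list without its members had a median of -0.26. That setting required 1 TPM in a library, which left out CNTNAP1 (0.35 TPM in CD44 high cells and 0.44 TPM in CD44 low cells). The -0.26 therefore covers fewer genes than the -0.83.

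Most anchors, partners and sheddases of these molecules stayed within 2-fold. Of 35 listed, 25 were measured, with a median log2 ratio of -0.23, 1 was higher and 1 lower. NRP1, a semaphorin and VEGF receptor that partners L1CAM in axon guidance, had 816 counts in CD44 high cells and 333 in CD44 low cells (2.45-fold higher, 2.16 to 2.80). EPB41L1, the neuronal band 4.1 protein, had 685 counts in CD44 high cells and 1611 in CD44 low cells (2.35-fold lower, 2.15 to 2.57). On the log2(TPM + 1) scale NRP1, like CADM2 and SLITRK5, no longer reached 2-fold, while EPB41L1 did.

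The microtubule-associated proteins beside MAP2 and MAP1B were mostly alike in both fractions. Of 37 listed, 29 were measured with a median log2 ratio of -0.06, and of the 27 that are not members 1 was higher and 1 lower. Without the members the median was 0.09 on the log2(TPM + 1) scale, which took only genes that reached 1 TPM in a library. STMN3, a neural stathmin that destabilizes microtubules, had 229 counts in CD44 high cells and 97 in CD44 low cells (2.36-fold higher, 1.86 to 3.03). MARK1, a kinase that releases microtubule-associated proteins from microtubules, had 182 counts in CD44 high cells and 672 in CD44 low cells (3.69-fold lower, 3.13 to 4.37). MAPT, which encodes tau, the closest relative of MAP2 among axonal proteins, is given here outside the rule for named genes and had 82 counts in CD44 high cells and 81 in CD44 low cells. Of 18 measured neurofilament, tubulin and growth cone genes among 26 listed, 0 were at least 2-fold higher and 0 lower, with a median of 0.23. Those with the most counts were the tubulins TUBB (log2 ratio 0.33) and TUBA1B (log2 ratio 0.53), whose fractional counts show that reads were shared with other tubulin genes.

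Of 24 calcium-binding genes known from neurons, 10 were measured, with a median log2 ratio of 0.50, or 0.42 without CALB2. CALB2 was the only one that was at least 2-fold higher with 50 counts, and 0 were lower. Below that minimum, CALB1 had 31 counts in CD44 high cells and 11 in CD44 low cells (2.82-fold higher, 1.38 to 6.22). It is given here outside the rule for named genes. The calmodulin genes CALM2 (log2 ratio 0.57) and CALM3 (log2 ratio 0.11) had the most counts. Of 28 regulators of neural transcription and splicing, 13 were measured, with a median of -0.35, 0 higher and 1 lower. This was SOX2, a transcription factor of squamous and neural progenitors, with 619 counts in CD44 high cells and 4202 in CD44 low cells (6.78-fold lower, 6.23 to 7.39).

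**Figure D5:**
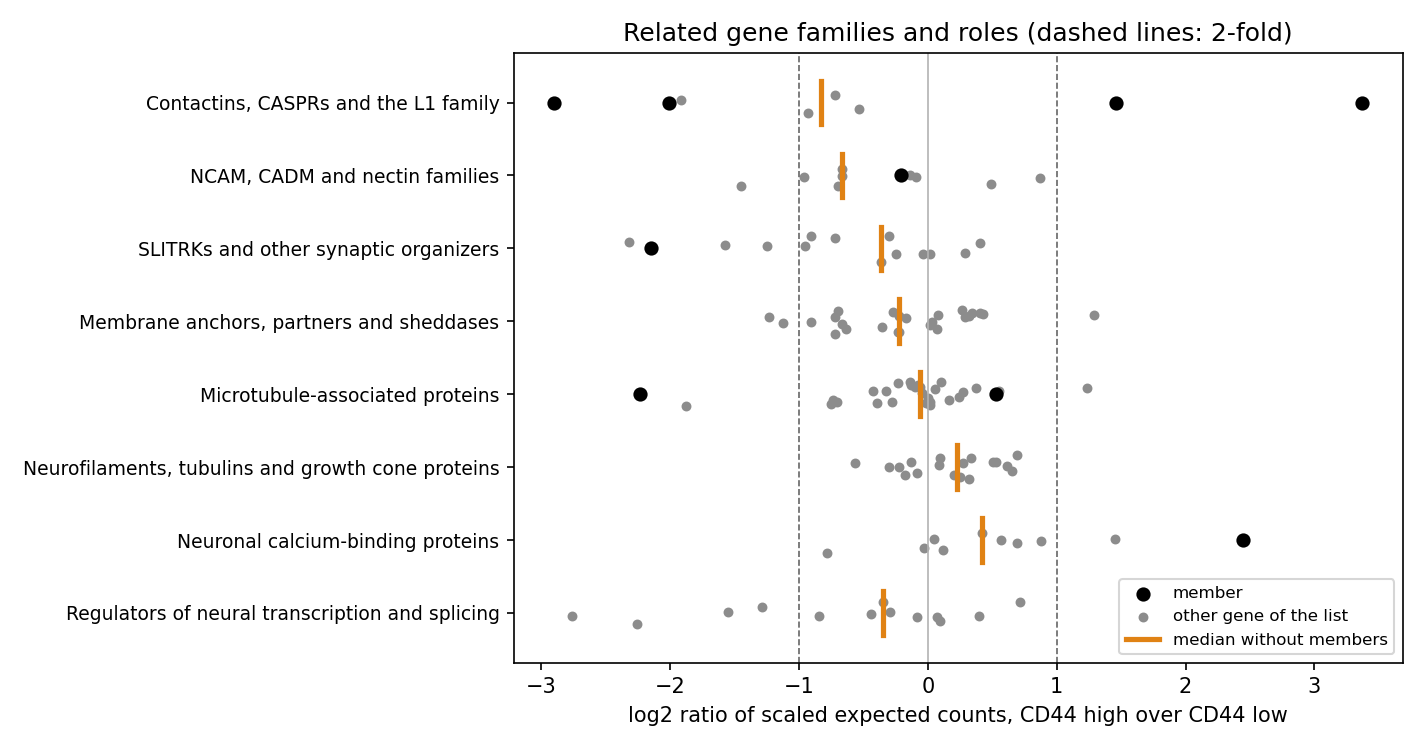
Log2 ratio CD44 high over CD44 low (horizontal axis) of each measured gene of the 8 lists (rows), with members in black, other genes in grey and the median without members in orange. Of the 9 members drawn, which were chosen on this ratio, 7 lie outside the dashed 2-fold lines. So do 9 other genes with 50 counts, while the tubulin, neurofilament and growth cone row has 0 genes outside them.

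Markers of other cell types were set beside the members. Of 12 neuron markers, 2 were measured, and RBFOX3, ELAVL4, STMN2, SLC32A1, GAD2 and SYN1 were at 0 in both libraries. The markers measured were SYT1, a calcium sensor of synaptic vesicles, with 228 counts in CD44 high cells and 364 in CD44 low cells, and GAD1, an enzyme of GABA synthesis (named after its values were seen), with 92 counts in CD44 high cells and 108 in CD44 low cells. Some transcripts known from neurons were thus present beside those at 0. The summed counts of the list were 343 in CD44 high cells and 488 in CD44 low cells. Of 8 neuroendocrine markers 1 was measured (SCG2, 205 counts in CD44 high cells and 279 in CD44 low cells), 5 were at 0 in both libraries, CHGA, CHGB and INSM1 among them, and the list summed to 224 counts in CD44 high cells and 291 in CD44 low cells. Of 8 glial markers 1 was measured (MBP, 901 counts in CD44 high cells and 843 in CD44 low cells, out of list sums of 903 in CD44 high cells and 843 in CD44 low cells), and 6 were at 0 in both libraries, SOX10 among them.

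Markers of stromal, blood and mesothelial cells were described in the same way. Fibroblast markers had 2 of 7 measured and summed to 178 counts in CD44 high cells and 314 in CD44 low cells, nearly all from COL1A1 (175 counts in CD44 high cells and 292 in CD44 low cells), with COL1A2, DCN, LUM and PDGFRA at 0. Endothelial and immune markers had 1 of 7 measured (CSF1R, 174 counts in CD44 high cells and 171 in CD44 low cells) and summed to 199 counts in CD44 high cells and 181 in CD44 low cells. Of 7 mesothelial markers, a list that includes CALB2, 5 were measured and ITLN1 was at 0. Without CALB2, 0 of the 4 measured were at least 2-fold different, and the one with the most counts was BNC1, with 1168 counts in CD44 high cells and 956 in CD44 low cells. The list summed to 2484 counts in CD44 high cells and 1938 in CD44 low cells, CALB2 included.

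In a list of squamous and general epithelial markers, part of the genes were also lower in CD44 high cells. Of 13 listed, 12 were measured, 7 were at least 2-fold lower in CD44 high cells (KRT6A, KRT14, KRT17, TP63, SOX2, TRIM29 and DSG3, named after their values were seen) and 0 were higher. The other 5 measured genes were KRT8, KRT18, EPCAM, CDH1 and DSP. Over all genes with 50 counts in a library, 4.2% were at least 2-fold lower. The median log2 ratio was -1.12. The list summed to 119860 counts in CD44 high cells and 116797 in CD44 low cells, most of it from the keratins KRT8 and KRT18, and KRT8 had a log2 ratio of 0.31. KRT5, a defining marker of basal squamous cells, had 0 counts in CD44 high cells and 8 in CD44 low cells. The part of this difference in squamous markers in the member ratios was not tested.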

How the data were processed

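The labels assigned 1 library to CD44 high and 1 to CD44 low. The authors mapped paired reads to GRCh38 with STAR 2.7.8 and quantified them with RSEM 1.2.31. They deposited expected counts divided by size factors for 60725 genes and 199348 transcripts, and deposited TPM (scaled by length and library). Their own fold changes and false discovery rates (EBSeq) were not used. Strand setting, collapsing of molecular identifiers and annotation release are not given in the sources used here. Columns of other samples numbered 0.

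Unscaled counts were recovered from the step of each column and rescaled by median-of-ratios size factors. Log2 ratios carry a prior count of 0.5, and folds do not. Intervals (95%) are exact conditional binomial intervals on rounded counts, exact binomial for shares and Poisson for TPM, and cover counting error only. Without replicates no test was run. The interval calculation was tested on simulated data. Members and lists were chosen with earlier results of these data known. Named genes were the members, up to 4 non-members per list with the largest ratio by the 2-fold rule (otherwise the 2 with most counts), the most counted marker per marker list, and the 2 coding genes nearest in ratio to the highest and lowest member; exceptions are stated. Alternatives were TMM factors (edgeR 4.0.16, R 4.3.3), total counts, TPM, a prior count of 5, other count and fold thresholds, and transcript sums. TPM without mitochondrial genes was added after seeing the data. Python 3.11.15, numpy 2.4.6, scipy 1.17.1 and pandas 2.3.3 were used.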

Additional observations from a re-analysis of the deposited data

How the results depend on the processing

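The 6 members counted as at least 2-fold different were counted under TMM factors, total counts, TPM, a prior count of 5, a minimum of 200 counts and a 1.5-fold threshold. A minimum of 10 counts added CNTNAP2 (7 members), and a 3-fold threshold left 1 higher member, CALB2, and 4 lower. The median log2 ratio of the members was -0.89 on the log2(TPM + 1) scale and -1.15 for TPM without mitochondrial genes. Both settings required 1 TPM in a library, which left out CNTNAP2, so these medians cover fewer members than the -0.21 on counts. On the log2(TPM + 1) scale the median lay between NCAM2 (-0.003) and NRCAM (-1.78). The 9 other list genes became 7 under TPM, where CADM2, NRP1 and SLITRK5 were lost and CELF4 was added, 7 under TPM without mitochondrial genes, where STMN3 was lost as well and ANK3 added, and 7 among list genes with 200 counts. Over all genes, TPM gave 435 higher and 490 lower genes (47.0% of calls higher, against 22.7% on counts) and moved the median of all genes to 0.15, and TPM without mitochondrial genes gave 386 higher and 876 lower. Higher and lower genes numbered 364 and 1073 at a minimum of 10 counts, 63 and 232 at 200 counts, 610 and 1292 at 1.5-fold, and 48 and 176 at 3-fold. No member counted as at least 2-fold different changed its direction, and the directions of single list genes were not compared. List medians near 0 could change sign. Without members, that of anchors, partners and sheddases was -0.23 on counts and 0.04 on the log2(TPM + 1) scale. For microtubule-associated proteins it was -0.06 on counts and 0.09 on that scale. No paired analysis was possible because each group has 1 library, and for the same reason no library could be left out.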
